A study of Homo sapiens with 24 samples.

Results

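The endoplasmic reticulum (ER) is where secreted and membrane proteins fold, and 10 genes of its folding machinery were followed here: the lectin chaperones CALR and CANX, the chaperone HSP90B1, the BiP partners HYOU1, SDF2L1 and MANF, the disulfide isomerases PDIA3, PDIA4 and PDIA6, and CRELD2. They were listed by gene name, with earlier results of these data known, so the shares of them that were called are a description of a chosen list. All 10 were among the 18915 genes of the count table, and all 10 passed the expression filter that left 12685 genes for testing. The cells were HepG2, an established human hepatoma line. They were treated for 10 h with DMSO as vehicle control, with 50 nM ISRIB, with 20 µM nelfinavir, with 50 nM bortezomib, or with 50 nM bortezomib together with ISRIB or with nelfinavir at those doses. There were 4 biological replicates per condition and 24 libraries in all, sequenced from the 3′ end of mRNA. No gene was altered in any group, and a single line at a single time point is the limit of the model.

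In the ER, calreticulin and calnexin bind glycoproteins that still carry a glucose on their sugar chain and hand them to the isomerase PDIA3, which makes and reshuffles disulfide bonds. The HSP70 protein BiP, encoded by HSPA5, binds other unfolded chains together with partners such as HYOU1, and clients can pass on to the HSP90 of this compartment. When unfolded proteins build up, the sensors ATF6, IRE1 and PERK start the unfolded protein response. ATF6 and the IRE1 product XBP1 switch on ER chaperone genes, whereas PERK phosphorylates eIF2α, which slows translation in general and favours translation of ATF4. Bortezomib blocks the proteasome, ISRIB makes cells insensitive to phosphorylated eIF2α by activating eIF2B, and nelfinavir is an inhibitor of the HIV protease. The series asked how compounds that act on the eIF2α-ATF4 pathway alter the response to bortezomib.

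The promoters of these genes are shown first, because most of them carry the DNA elements through which ATF6 and XBP1 are known to act. RefSeq windows on GRCh38.p14, from 250 bases before to 50 bases after an annotated start, were matched by symbol and found for 9 of the 10 genes, with 14 windows in all. No window was matched for PDIA3. Both strands were searched for exact matches to the ER stress response element ERSE, which is CCAAT and CCACG with 9 bases between them. ERSE-II, searched likewise, is ATTGG and CCACG with 1 base between them. A site that differs at any fixed base was not counted. Either element holds a CCAAT box, which alone was present in 34.6% of all windows. Also searched were the core TGACGTGG of the unfolded protein response element (UPRE), and TGATGNAA, a form of the C/EBP-ATF response element (CARE) that ATF4 binds. ERSE or ERSE-II was present in 7 of the 9 genes, and in 46 of all 35116 windows, which is 0.131%. The first number counts genes with a match in any of their windows, up to 4 for CANX, and the second counts single windows. The list holds ER folding genes, a class that ATF6 and XBP1 are known to switch on, so the count describes this list and is not a test. The genes with ERSE were HSP90B1, CALR, CANX, CRELD2 and PDIA6, and those with ERSE-II were HYOU1 and SDF2L1. MANF and PDIA4 had no exact match to either element. No window of the 9 genes held the CARE, which was present in 3.62% of all windows. A match describes the letters in the window and is not evidence of binding. The 250 bases before the start are printed 5′ to 3′ on the strand of the gene for 4 of the 7 genes that hold an element, with the elements in capitals. They were picked to show an element in its context. The windows of MANF and PDIA4, which rose by 1.84 and 1.33 (log2) when ISRIB was added to bortezomib, hold no exact match. HSP90B1 lies at chr12:103930160-103930409 with 2 ERSE, HYOU1 at chr11:119057206-119057455 on the minus strand with 2 ERSE-II, SDF2L1 at chr22:21642052-21642301 with 1 ERSE-II, and CRELD2 at chr22:49918384-49918633 with 1 ERSE.
HSP90B1: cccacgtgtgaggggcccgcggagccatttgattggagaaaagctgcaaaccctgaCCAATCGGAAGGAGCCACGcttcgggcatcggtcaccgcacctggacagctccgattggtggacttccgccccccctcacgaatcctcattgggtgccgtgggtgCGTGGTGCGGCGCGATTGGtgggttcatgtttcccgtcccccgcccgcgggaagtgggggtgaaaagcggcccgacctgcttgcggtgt
HYOU1: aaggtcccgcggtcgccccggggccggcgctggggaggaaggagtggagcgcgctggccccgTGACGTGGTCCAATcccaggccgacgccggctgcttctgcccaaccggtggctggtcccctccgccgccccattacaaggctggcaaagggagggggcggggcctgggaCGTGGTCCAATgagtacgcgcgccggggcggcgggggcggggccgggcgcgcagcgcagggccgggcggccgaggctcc
SDF2L1: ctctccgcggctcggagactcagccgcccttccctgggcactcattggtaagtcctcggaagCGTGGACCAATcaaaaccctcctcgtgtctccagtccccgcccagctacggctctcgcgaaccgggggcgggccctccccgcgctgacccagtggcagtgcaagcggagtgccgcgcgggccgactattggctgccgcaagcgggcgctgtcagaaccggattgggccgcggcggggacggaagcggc
CRELD2: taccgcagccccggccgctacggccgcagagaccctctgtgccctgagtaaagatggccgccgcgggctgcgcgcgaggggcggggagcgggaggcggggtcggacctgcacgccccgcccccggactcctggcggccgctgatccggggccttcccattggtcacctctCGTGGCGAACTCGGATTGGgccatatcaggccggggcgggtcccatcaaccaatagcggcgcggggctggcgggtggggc

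In HSP90B1, 1 ERSE read forward from -194 to -176 and 1 read on the opposite strand from -89 to -71, counted back from the base before the start. In HYOU1, the ERSE-II matches spanned -185 to -175 and -79 to -69. The upstream one overlapped a UPRE core from -188 to -181, so that 1 capital run there holds both. The UPRE core was present in 0.729% of all windows and in no other window of these genes. The ERSE of the other genes is shown with 5 bases on either side for comparison, with the element in capitals. That of CANX is 1 genomic site seen from 3 overlapping windows.
CALR ERSE: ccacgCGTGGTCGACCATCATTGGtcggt
CANX ERSE: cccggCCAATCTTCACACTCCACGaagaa
PDIA6 ERSE: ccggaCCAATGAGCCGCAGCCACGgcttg

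**Figure D1:**
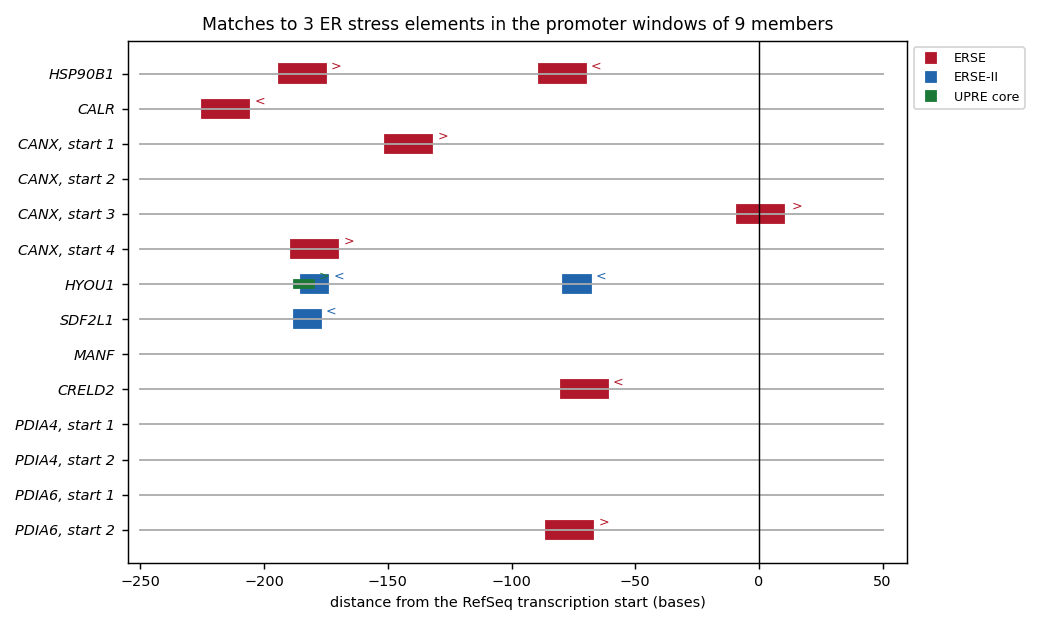
Matches to ERSE (red), ERSE-II (blue) and the UPRE core (green) in the 14 promoter windows of 9 genes, drawn by distance in bases from the annotated start (vertical line), with the arrowhead giving the strand of the match relative to the gene. The elements lie upstream of the start in all genes that have one, except where 1 of the CANX windows places its start within the shared site, and MANF and PDIA4 have no match.

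Over the whole table, total counts per library ran from 5154533 to 6943164. Mitochondrially encoded genes took 33.8% ± 1.20 of the counts in bortezomib against 21.5% ± 1.32 in DMSO (SD, n = 4). With nelfinavir added the share was 27.2% ± 2.26, and with ISRIB added it was 36.1% ± 3.13, with replicate 4 of that group highest at 40.2%. All 8 hepatocyte markers were detected. Their summed level was 12970 to 14470 CPM in DMSO, 12130 to 13070 in ISRIB, 12900 to 14330 in nelfinavir, 10140 to 10750 in bortezomib, 6679 to 8598 in bortezomib with nelfinavir and 9349 to 10950 in bortezomib with ISRIB. It was thus lower in every library with bortezomib, and lowest in the nelfinavir co-treatment, and its part in the results was not tested. Leukocyte (summed level at most 5.21 CPM) and fibroblast (at most 1.11 CPM) markers were near 0, with 1 of 3 and 1 of 4 genes in the table, and none of the 3 endothelial markers was. Levels below are in CPM, counts scaled to a common library size with TMM factors, which align the bulk of the genes between libraries, and changes are log2 fold changes with the standard error (SE) of edgeR's model. A gene is called when its adjusted p over all tested genes is under 0.05. In bulk RNA, a lower level in every cell and fewer cells with the transcript cannot be told apart.

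The 10 genes together took 0.562% ± 0.00382 of all counts in DMSO, 0.505% ± 0.0100 in ISRIB, 0.522% ± 0.0408 in nelfinavir and 0.528% ± 0.0260 in bortezomib (SD, n = 4). In bortezomib with nelfinavir the share was 0.914% ± 0.0181, and in bortezomib with ISRIB 0.936% ± 0.0542. The lowest share in a library of either co-treatment was 0.859%, above the highest of any other library, which was 0.566%. Of the counts without mitochondrially encoded genes, the 10 genes took 0.716% ± 0.0102 in DMSO and 0.797% ± 0.0290 in bortezomib. They took 1.255% ± 0.0553 with nelfinavir added to bortezomib and 1.466% ± 0.0622 with ISRIB added. By this measure bortezomib alone stood above DMSO, whereas by all counts it stood below. The rise of the summed share in the co-treatments is thus visible in the raw counts. By TMM-scaled level, each of the 10 genes had its 2 highest group means in the 2 co-treatments. In raw counts the rise over DMSO did not hold for every gene. PDIA4 had 621 to 965 counts in bortezomib with nelfinavir and 1050 to 1284 in DMSO.

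**Figure D2:**
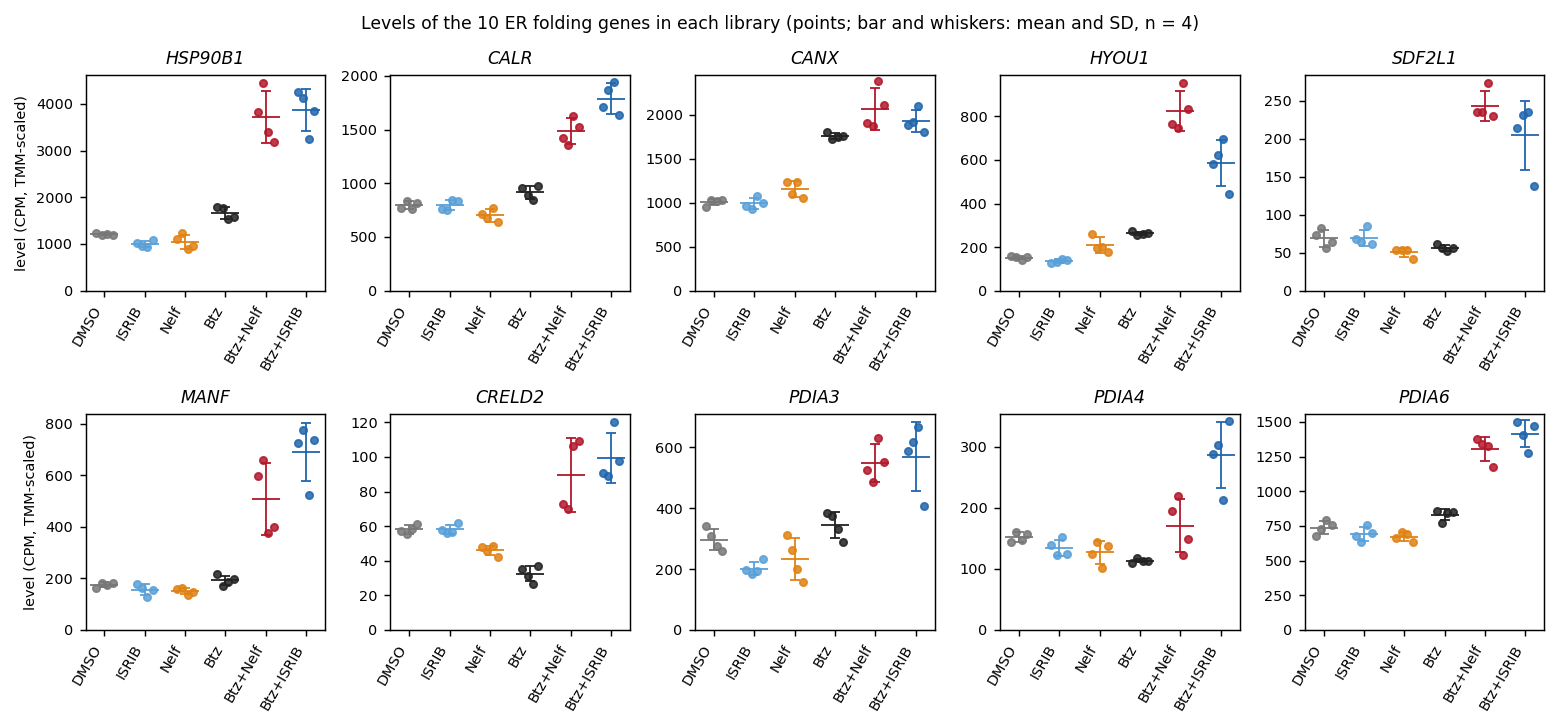
Level of each gene in CPM (linear axis from 0) in the 24 libraries, with the mean and SD of the 4 libraries of each group. Bortezomib with nelfinavir (red) and bortezomib with ISRIB (blue) have the highest means in every panel, CANX is already raised by bortezomib alone, and the mean of CRELD2 and of PDIA4 is lowest in bortezomib.

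Bortezomib alone gave a divided picture. Against DMSO it raised HSP90B1, CALR, CANX and HYOU1 and lowered CRELD2 and PDIA4, whereas SDF2L1, MANF, PDIA3 and PDIA6 were not called. Of these, SDF2L1 was called lower in 8 of the 10 other settings, and PDIA6 was called higher with edgeR's default filter (0.18, adjusted p = 0.0400) and without DMSO replicate 3 (0.205, adjusted p = 0.0406). The count was 4 of 10 higher, where 27.6% of all tested genes were called higher, and 2 of 10 lower, where 25.8% were, so that the shares lay near those of all genes. The median log2 change of the 10 was 0.19, against 0.00174 over all genes tested. None of the 6 called genes moved more than 2-fold, where 10.3% of all genes were called and more than 2-fold higher and 12.2% lower. Scaling by library totals alone gave 2 of the 10 genes higher and 6 lower, where 1490 and 6266 of all 12685 tested genes were. The calls of bortezomib against DMSO are the ones that depend most on the scaling.

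Adding either nelfinavir or ISRIB to bortezomib changed this. With nelfinavir, all 10 genes were called higher than with bortezomib alone, where 15.6% of all tested genes were, and 5 of them by more than 2-fold, where 3.12% were. With ISRIB, 9 of the 10 were called higher, where 6.91% of all tested genes were, and 6 by more than 2-fold, where 1.47% were. CANX was the exception. The median log2 change was 0.93 with nelfinavir and 1.18 with ISRIB, against -0.02 and 0.01 over all genes tested. In both comparisons the 4 libraries of each co-treatment lay above the 4 of bortezomib for all 10 genes, where 12.4% of all genes did so with nelfinavir and 6.50% with ISRIB. Both comparisons share the 4 bortezomib libraries and so are not independent of each other. Against DMSO, 9 of the 10 were called higher with nelfinavir added, where 30.4% of all genes were, and 10 of 10 with ISRIB added, where 28.6% were.

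**Figure D3:**
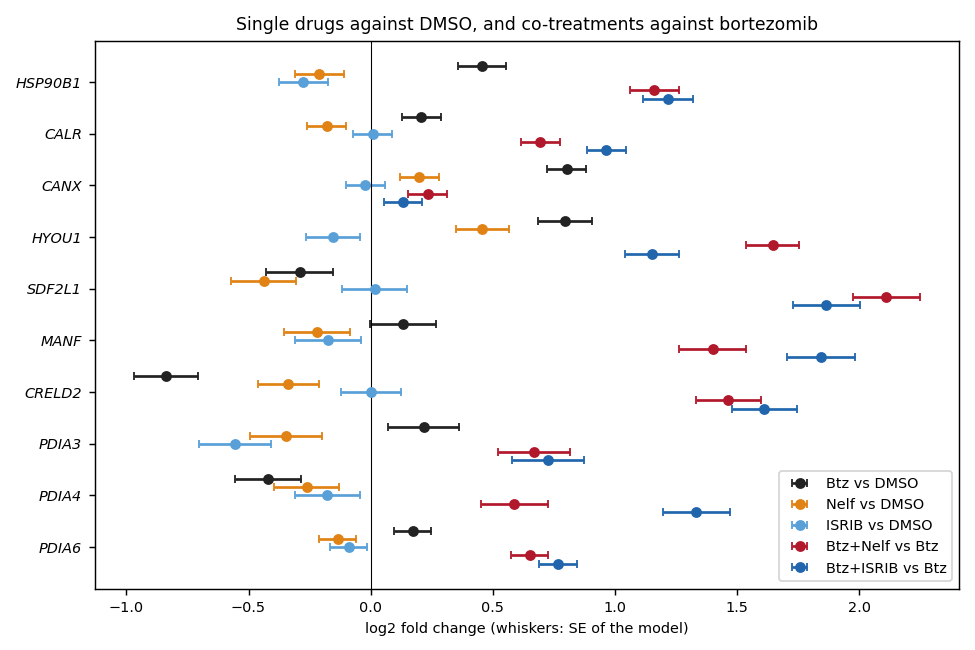
Log2 fold change of each gene (points, whiskers give the SE of the model) for the single drugs against DMSO and for both co-treatments against bortezomib. The changes with bortezomib alone run from -0.84 for CRELD2 to 0.80 for CANX, while those of the co-treatments against bortezomib run from 0.13 for CANX to 2.11 for SDF2L1, all to the right of 0.

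HSP90B1 (chr12:104323885-104347709, plus strand, GRCh37) encodes GRP94, the HSP90 of the ER, which finishes the folding of a limited set of clients. Its level was 1234, 1199, 1221 and 1200 CPM in the DMSO libraries and 1784, 1765, 1526 and 1582 CPM in those with bortezomib. It was 3833, 4453, 3404 and 3195 CPM in bortezomib with nelfinavir and 4265, 4121, 3241 and 3850 CPM in bortezomib with ISRIB. Every bortezomib library lay above every DMSO library, and every co-treated library above every bortezomib library, whereas the 2 co-treatments overlapped. The rise was 0.46 ± 0.10 (log2, SE) with bortezomib against DMSO (adjusted p = 0.000249), and a further 1.16 ± 0.10 with nelfinavir (adjusted p = 1.36e-10) and 1.22 ± 0.10 with ISRIB (adjusted p = 1.42e-10). With scaling by library totals alone the first step was -0.04, and with totals that leave out mitochondrially encoded genes it was 0.20 (adjusted p = 0.0912). By the main scaling the co-treatments stood 3.07-fold and 3.19-fold higher than DMSO. The gene UQCC6 covers the 3′ end of HSP90B1 on the opposite strand and had 1333 counts over all libraries, and no source used here gives the strand setting of the counting.

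HYOU1 (chr11:118914899-118927938, minus strand, GRCh37) encodes GRP170, a large HSP70-like protein that exchanges the nucleotide of BiP. It was 157, 155, 139 and 156 CPM in DMSO and 260, 196, 201 and 177 CPM in nelfinavir, and it was the only one of the 10 genes called higher with nelfinavir alone (0.46 ± 0.11, adjusted p = 0.00234). In bortezomib it was 274, 256, 260 and 264 CPM, a rise of 0.80 ± 0.11 over DMSO (adjusted p = 2.36e-07), or of 0.30 with library totals alone. It reached 767, 745, 951 and 835 CPM in bortezomib with nelfinavir and 581, 623, 696 and 443 CPM in bortezomib with ISRIB. These groups did not overlap with each other or with bortezomib alone. HYOU1 was the only gene of the 10 called higher in bortezomib with nelfinavir than in bortezomib with ISRIB, by 0.49 ± 0.11 (adjusted p = 0.000836), and at 5.43-fold it had the largest rise over DMSO of the 10 genes in the nelfinavir co-treatment. The lowest ISRIB co-treated library was replicate 4, the one with the highest mitochondrial share.

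SDF2L1 (chr22:21996591-21998588, plus strand, GRCh37) is a small luminal protein that works with BiP and the co-chaperone DNAJB11. Its level was 72.7, 82.4, 55.6 and 64.3 CPM in DMSO and 61.4, 56.0, 52.2 and 55.5 CPM in bortezomib. With bortezomib alone its log2 change against DMSO was -0.29 ± 0.14 (adjusted p = 0.0745), and with nelfinavir alone it fell by 0.44 ± 0.13 (adjusted p = 0.0185). It then had the largest fitted rise of the 10 genes over bortezomib with each added drug. The co-treated libraries stood at 235, 235, 273 and 230 CPM with nelfinavir and at 214, 232, 235 and 138 CPM with ISRIB. That was 4.32-fold (2.11 ± 0.14, adjusted p = 1.59e-13) and 3.64-fold (1.87 ± 0.14, adjusted p = 8.46e-12) above bortezomib alone. The fall with nelfinavir alone lost its call without DMSO replicate 1 (-0.41), DMSO replicate 2 (-0.35) or nelfinavir replicate 4 (-0.36), with adjusted p between 0.0561 and 0.0929. The change with bortezomib was called lower in 8 of the 10 other settings, the replicate block among them (adjusted p = 0.0457), with values down to -0.79 with library totals alone. It was also called lower without DMSO replicate 3 (-0.38) or bortezomib replicate 1 (-0.38).

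MANF (chr3:51422722-51426828, plus strand, GRCh37) is a small ER protein that binds BiP and can be secreted under stress. It was 163, 182, 174 and 184 CPM in DMSO and 215, 172, 186 and 196 CPM in bortezomib, groups that overlapped and differed by 0.13 ± 0.14 (adjusted p = 0.435), or by -0.37 with library totals alone, which was called. It was 597, 660, 377 and 400 CPM in bortezomib with nelfinavir and 727, 776, 522 and 737 CPM in bortezomib with ISRIB. The rises over bortezomib were 1.4 ± 0.14 (adjusted p = 1.65e-09) and 1.84 ± 0.14 (adjusted p = 1.01e-11). MANF thus rose 2.64-fold and 3.59-fold. No exact match to ERSE or ERSE-II was found in its window, and any relation of a match to a rise was not tested. The difference between the 2 co-treatments was -0.44 ± 0.13 (adjusted p = 0.0127, lower with nelfinavir), but the libraries overlapped. The call was lost without bortezomib with nelfinavir replicate 3 (-0.30) or 4 (-0.32) or without bortezomib with ISRIB replicate 2 (-0.35). A fit of only the groups compared lost it too (-0.47).

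The lectin chaperones CALR (chr19:13049392-13055303, plus strand, GRCh37) and CANX (chr5:179105629-179158642, plus strand, GRCh37) act on the same substrates, the former soluble in the lumen and the latter anchored in the membrane, and they moved differently. CALR was 766, 836, 758 and 814 CPM in DMSO, 957, 886, 845 and 977 CPM in bortezomib, 1423, 1354, 1630 and 1525 CPM in bortezomib with nelfinavir and 1707, 1867, 1947 and 1632 CPM in bortezomib with ISRIB. Each of these groups lay wholly above the one before it. The steps were 0.21 ± 0.08 for bortezomib over DMSO (adjusted p = 0.0288), and 0.69 ± 0.08 with nelfinavir (adjusted p = 4.84e-08) and 0.96 ± 0.08 with ISRIB (adjusted p = 1.60e-10) over bortezomib. CALR was lower with nelfinavir than with ISRIB beside bortezomib, by -0.27 ± 0.08 (adjusted p = 0.0119). That call was lost in 7 of the 18 alternatives: without a filter (-0.22), in a fit of only the groups compared (-0.29), without bortezomib with nelfinavir replicate 1 (-0.20), 2 (-0.18) or 4 (-0.25), and without bortezomib with ISRIB replicate 2 (-0.21) or 3 (-0.18). The higher call of the small first step was lost in 13 of the 18 alternatives. Among these it was -0.29 with scaling by library totals alone, which was called lower, and -0.05 with totals that leave out mitochondrially encoded genes, which was not called.

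CANX was 952, 1030, 1016 and 1026 CPM in DMSO and 1801, 1724, 1746 and 1753 CPM in bortezomib. This rise of 0.80 ± 0.08 (adjusted p = 2.74e-10) was, with that of HYOU1, the largest fitted one with bortezomib alone. Scaling by library totals alone lowered it to 0.31, still called. The added drugs then gave the smallest fitted changes of the 10 genes. The level was 1901, 1870, 2381 and 2105 CPM in bortezomib with nelfinavir and 1878, 1919, 2098 and 1805 CPM in bortezomib with ISRIB. Against bortezomib the changes were 0.23 ± 0.08 with nelfinavir (adjusted p = 0.0256) and 0.13 ± 0.08 with ISRIB (adjusted p = 0.296, 95% interval from -0.03 to 0.29). The call with nelfinavir was lost with upper-quartile factors (0.19), with library totals alone (0.20) or without mitochondrially encoded genes (0.06), in a fit of only the groups compared (0.22), and without bortezomib with nelfinavir replicate 3 (0.18).

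The disulfide isomerases differed in how they answered each drug. PDIA6 (chr2:10923517-10978103, minus strand, GRCh37), also called P5, ranged from 679 to 792 CPM in DMSO and from 772 to 859 CPM in bortezomib (0.17 ± 0.08, adjusted p = 0.0577, or -0.33 and called with library totals alone). It was 1375, 1341, 1326 and 1175 CPM in bortezomib with nelfinavir and 1499, 1409, 1277 and 1473 CPM in bortezomib with ISRIB. The rises over bortezomib were 0.65 ± 0.08 (adjusted p = 6.80e-08) and 0.77 ± 0.08 (adjusted p = 8.07e-09), with no overlap with bortezomib alone. PDIA3 (chr15:44038592-44065477, plus strand, GRCh37), the partner of the lectins also called ERp57, had the most scatter within groups. It was 340, 309, 277 and 260 CPM in DMSO, 196, 183, 195 and 233 CPM in ISRIB and 311, 264, 201 and 157 CPM in nelfinavir. It was 383, 375, 331 and 291 CPM in bortezomib, 527, 485, 632 and 550 CPM in bortezomib with nelfinavir and 588, 617, 668 and 407 CPM in bortezomib with ISRIB. The rises over bortezomib were 0.67 ± 0.15 (adjusted p = 0.000751) and 0.73 ± 0.15 (adjusted p = 0.000850). The last 500 bases of PDIA3 are 98.8% identical to the pseudogene PDIA3P1, so the split of reads between the pair is uncertain.

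PDIA4 (chr7:148700154-148725754, minus strand, GRCh37), also called ERp72, was the gene of the 10 on which the co-treatments differed most. It was 144, 161, 147 and 157 CPM in DMSO and 110, 117, 113 and 114 CPM in bortezomib, a fall by 0.42 ± 0.14 (adjusted p = 0.00899) with no overlap. Added ISRIB brought it to 288.5, 303, 212 and 342 CPM, a rise of 1.33 ± 0.14 over bortezomib (adjusted p = 1.33e-08), and above every DMSO library. Added nelfinavir brought it to 194, 219, 122 and 148 CPM, a rise of 0.59 ± 0.14 over bortezomib (adjusted p = 0.00139), which overlapped the DMSO libraries (0.16 ± 0.13 against DMSO, adjusted p = 0.289, or -0.37 and called with library totals alone). The co-treatments differed by -0.75 ± 0.13 (adjusted p = 8.31e-05), so that the level with nelfinavir was 0.596 of that with ISRIB, although the highest nelfinavir and the lowest ISRIB library overlapped.

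CRELD2 (chr22:50311815-50321188, plus strand, GRCh37), an ER protein with EGF-like domains that is known as a target of ER stress, was lowered by bortezomib and stood above DMSO in both co-treatments. It was 57.3, 55.3, 58.5 and 61.2 CPM in DMSO and 35.5, 31.0, 26.8 and 36.7 CPM in bortezomib, where it fell by 0.84 ± 0.13 (adjusted p = 2.31e-06). It was 72.5, 69.9, 106 and 109 CPM in bortezomib with nelfinavir and 90.6, 88.8, 120 and 97.5 CPM in bortezomib with ISRIB. All co-treated libraries lay above all DMSO libraries. The rises over bortezomib were 2.76-fold (1.46 ± 0.13, adjusted p = 3.46e-10) and 3.05-fold (1.61 ± 0.13, adjusted p = 1.30e-10), of which 1.54-fold and 1.71-fold remained against DMSO. The rise over DMSO lost its call with scaling by library totals alone, at 0.10 with nelfinavir and 0.22 with ISRIB, and with nelfinavir also with totals without mitochondrially encoded genes, at 0.20.

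Without bortezomib, few of the 10 genes were called with either drug. Against DMSO, nelfinavir called 1 of the 10 higher (HYOU1), where 10.4% of all genes were, and 1 lower (SDF2L1), where 8.84% were. The median log2 change was -0.21. CRELD2, at 42.2 to 48.3 CPM against 55.3 to 61.2 CPM in DMSO, was not called in the main model. It was called lower with upper-quartile factors, with totals without mitochondrially encoded genes and with DESeq2 (-0.35 to -0.38). The fit without a filter, that of only the groups compared and the replicate block called both CRELD2 and PDIA3 lower. ISRIB called 0 of the 10 genes by edgeR and 0 by DESeq2, with a median of -0.12. At an unadjusted p under 0.05, HSP90B1 (-0.28 ± 0.10, adjusted p = 0.719) and PDIA3 (-0.56 ± 0.15, adjusted p = 0.334) were lower with ISRIB, and in both the ISRIB libraries lay below all DMSO libraries, as in 4.52% of all genes. In other edgeR fits PDIA3 was called lower without a filter (adjusted p = 2.13e-05), as were 34 of 18915 genes. In a fit of only the groups compared PDIA3 (adjusted p = 0.00773) and HSP90B1 (adjusted p = 0.0472) were called lower, as were 76 of 12049 genes. Over all genes, edgeR called 0% with ISRIB alone, 5.54% had an unadjusted p under 0.05, and DESeq2 called 1 gene higher and 20 lower of the 2848 to which it gave an adjusted p.

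The interaction term asks whether the change on adding a drug differs between cells with and without bortezomib. It was called for 9 of the 10 genes with nelfinavir, where 9.74% of all genes were called higher, and for 9 of the 10 with ISRIB, where 2.93% were. It ranged from 0.79 ± 0.11 for PDIA6 to 2.55 ± 0.19 for SDF2L1 with nelfinavir, and from 0.86 ± 0.11 for PDIA6 to 2.02 ± 0.19 for MANF with ISRIB. CANX was not called in either, at 0.03 ± 0.11 (adjusted p = 0.868) and 0.16 ± 0.11 (adjusted p = 0.507). The same values can be read as a ratio to the product of the effects of each drug alone. SDF2L1 stood at 243 CPM in bortezomib with nelfinavir, where that product gives 41.6 CPM. MANF stood at 691 CPM in bortezomib with ISRIB, where it gives 170 CPM. For CANX the observed level was 1.02 and 1.11 times the product.

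**Figure D4:**
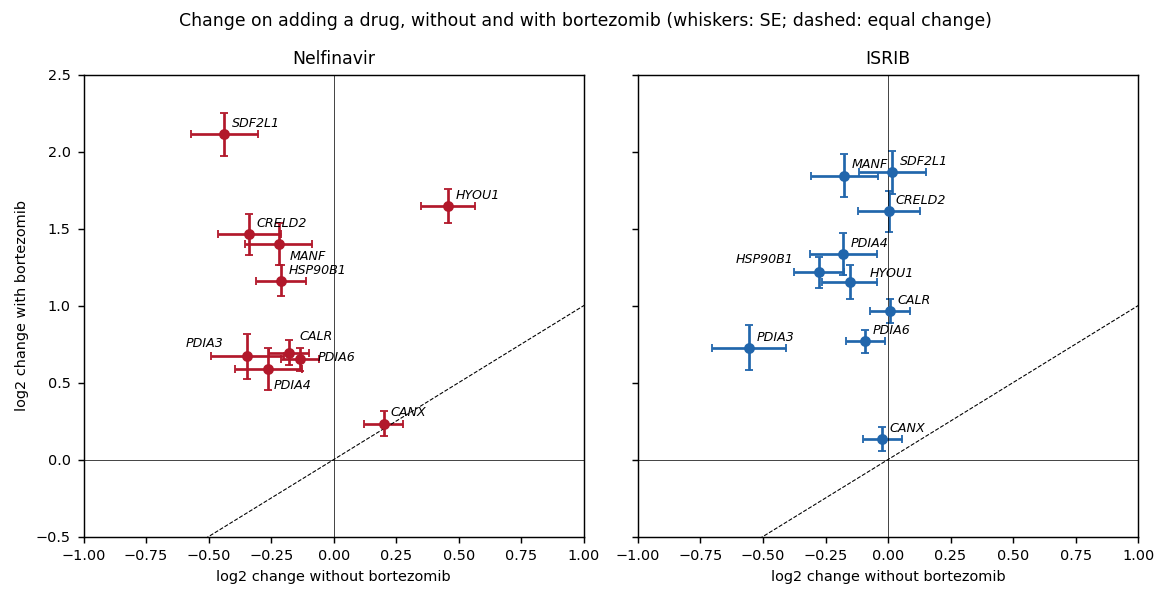
Log2 change on adding nelfinavir (left) or ISRIB (right) to cells without bortezomib (horizontal axis) and with bortezomib (vertical axis), with the SE of the model as whiskers and a dashed line where both are equal. CANX lies close to the line in both panels, and the other 9 genes lie above it.

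Comparing the co-treatments directly, 1 of the 10 genes was called higher with nelfinavir (HYOU1), where 13.2% of all genes were, and 3 were called lower (CALR, MANF and PDIA4), where 11.3% were. The other 6 genes were not called. For HSP90B1 the difference was -0.06 (95% interval from -0.26 to 0.15), for PDIA3 -0.06 (from -0.35 to 0.24) and for PDIA6 -0.12 (from -0.27 to 0.04). For SDF2L1 it was 0.25 (from -0.02 to 0.51), for CRELD2 -0.15 (from -0.40 to 0.11) and for CANX 0.10 (from -0.06 to 0.26). These intervals leave room for differences of either sign.

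The libraries of each co-treatment did not all move together. In bortezomib with nelfinavir, replicates 1 and 2 were higher than replicates 3 and 4 for HSP90B1, MANF, PDIA4 and PDIA6, and lower for CALR, CANX, HYOU1, CRELD2 and PDIA3. In bortezomib with ISRIB, replicate 3 was the lowest for HSP90B1, MANF, PDIA4 and PDIA6 and the highest for CALR, CANX, HYOU1, SDF2L1, CRELD2 and PDIA3, while replicate 4, at a mitochondrial share of 40.2%, was the lowest for CALR, CANX, HYOU1, SDF2L1 and PDIA3. Mitochondrial shares were 28.5%, 29.6%, 24.9% and 25.6% in replicates 1 to 4 of the nelfinavir co-treatment. Their part in these differences was not tested. Without any 1 of the 8 libraries of a comparison, the count of genes called higher than with bortezomib stayed at 9 with ISRIB, and at 9 or 10 with nelfinavir.

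BiP and its cofactors formed a separate list, of which 9 of 9 were tested. The members HYOU1, SDF2L1 and MANF are also partners of BiP. BiP itself (HSPA5) had a mean of 1459 ± 51.8 CPM in DMSO and 2134 ± 161 CPM in bortezomib (SD, n = 4), a rise that was 0.05 and not called with library totals alone. It reached 13420 ± 2430 CPM with nelfinavir added and 10020 ± 1040 CPM with ISRIB added. Its rises over bortezomib were 2.65 ± 0.10 and 2.23 ± 0.10, larger than the fitted rise of any of the 10 genes in the same comparison. In the list, 8 of 9 genes were called higher with nelfinavir added and 6 of 9 with ISRIB added, where 15.6% and 6.91% of all genes were. None was called lower, where 13.4% and 5.34% of all genes were. DNAJB9, a co-chaperone that guides clients to degradation, rose by 1.37 ± 0.30 with nelfinavir. DNAJB11, the partner of SDF2L1, rose by 1.05 ± 0.07 with ISRIB. HSPA13, an HSP70-like protein of the ER, was already raised by bortezomib (1.45 ± 0.15) and by nelfinavir (1.19 ± 0.14) alone, as was DNAJB9 (1.81 ± 0.33 and 0.94 ± 0.33). The call of DNAJB9 with nelfinavir alone was lost with DESeq2 and with totals without mitochondrially encoded genes. It was also lost without DMSO replicate 1, 2 or 4 or nelfinavir replicate 1, 2 or 4 (adjusted p of up to 0.127).

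The other disulfide isomerases and oxidases did not move as a block. Of 20 genes, 17 were tested. With nelfinavir added to bortezomib 6 were called higher and 6 lower (median log2 change 0.10), where 15.6% and 13.4% of all genes were. With ISRIB added 7 were called higher and 2 lower (median 0.22), where 6.91% and 5.34% of all genes were. ERO1LB, an oxidase that recharges the isomerases, rose most, by 2.26 ± 0.22 and 1.38 ± 0.22. TXNDC11 rose by 0.82 ± 0.15 with nelfinavir and PDIA5 by 0.55 ± 0.14 with ISRIB. TXNDC12, a thioredoxin-like protein of the ER, fell by 0.71 ± 0.09 and by 0.60 ± 0.09, the peroxidase GPX7 fell by 1.08 ± 0.29 with nelfinavir, and TMX3 fell by 0.54 ± 0.11 with ISRIB. With bortezomib alone, QSOX1 (1.95 ± 0.23) and TMX3 (1.83 ± 0.11) rose, and TMX4 fell by 1.00 ± 0.12 and GPX7 by 0.72 ± 0.24. With nelfinavir alone, ERO1LB (1.21 ± 0.26) and QSOX1 (0.70 ± 0.24) rose and ERO1L fell by 0.31 ± 0.10. GPX7 lost its calls without DMSO replicate 3 with bortezomib (-0.60) and without bortezomib replicate 2 with nelfinavir added (-0.75). With nelfinavir alone, QSOX1 lost its call without DMSO replicate 1 or 2 or nelfinavir replicate 3 or 4 (adjusted p of up to 0.158). ERO1L lost its call without DMSO replicate 3 or 4 or nelfinavir replicate 1, 3 or 4 (up to 0.0918). Both also lost it without a filter, and ERO1L with counts thinned to the smallest library.

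A further list held enzymes that trim and check glycans for the lectins, and other glycan-binding proteins. Of its 9 genes, all tested, 3 were called higher with nelfinavir added to bortezomib and 2 with ISRIB added, and none lower. Over all genes, 15.6% and 6.91% were called higher, and 13.4% and 5.34% lower. MLEC, which encodes a lectin for glucosylated glycans, had the largest changes among those named here. It fell by 1.30 ± 0.10 with bortezomib alone and rose by 0.99 ± 0.10 and 1.02 ± 0.10 with nelfinavir and ISRIB. The cargo receptor LMAN1 rose with bortezomib (0.77 ± 0.09) and further with nelfinavir (0.52 ± 0.09). Its partner MCFD2 rose with nelfinavir alone (0.50 ± 0.09) and with ISRIB added to bortezomib (0.38 ± 0.09). UGGT2, of the family that re-glucosylates misfolded glycoproteins, rose with bortezomib (0.95 ± 0.12), and the glucosidase MOGS fell with bortezomib by 0.31 ± 0.11 and rose with nelfinavir alone (0.55 ± 0.11). The fall of MOGS lost its call without DMSO replicate 3 (-0.24) or 4 (-0.30).

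Of the 8 ER prolyl isomerases, which turn proline bonds during folding, 3 were called higher and 1 lower with nelfinavir added to bortezomib. The shares of all genes were 15.6% and 13.4%. With ISRIB added 4 were called higher, where 6.91% of all genes were. FKBP14 rose by 1.79 ± 0.12 and 1.12 ± 0.12 and PPIB by 0.86 ± 0.16 and 1.12 ± 0.16, while PPIC fell by 0.88 ± 0.16 with nelfinavir. With bortezomib alone FKBP7 fell by 1.49 ± 0.53 and FKBP2 by 0.79 ± 0.11. With nelfinavir alone FKBP14 (0.70 ± 0.11) and FKBP10 (0.53 ± 0.15) rose. FKBP7 lost its call without bortezomib replicate 2 (-1.11), and FKBP10 without DMSO replicate 4 (0.415).

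Close relatives of 3 members gave a contrast within families. CRELD1 and SDF2, paralogues of CRELD2 and SDF2L1, rose with bortezomib alone by 0.59 ± 0.19 and 0.35 ± 0.10, where CRELD2 fell and SDF2L1 was not called, but with library totals alone they were at 0.10 and -0.15 and not called. With totals without mitochondrially encoded genes CRELD1 was at 0.34 and SDF2 at 0.09, and neither was called. SDF2 also lost that call without a filter (0.27), and CRELD1 without bortezomib replicate 1 (0.39). With the drugs added SDF2 changed by 0.17 ± 0.10 with nelfinavir (adjusted p = 0.208) and 0.33 ± 0.10 with ISRIB (adjusted p = 0.0244, lost with library totals alone, without a filter, in a fit of only the groups compared, and without bortezomib replicate 1 or 2 or bortezomib with ISRIB replicate 3), whereas CRELD1 rose by 0.76 ± 0.18 and 1.10 ± 0.18. CLGN, the paralogue of CANX, rose with bortezomib (0.53 ± 0.12) and with nelfinavir alone (0.66 ± 0.12). The call with bortezomib was lost with library totals alone (0.03) and with totals without mitochondrially encoded genes (0.275). CLGN was at 0.13 ± 0.12 with nelfinavir added to bortezomib (adjusted p = 0.440), and fell by 0.63 ± 0.13 with ISRIB added. CDNF, the paralogue of MANF, had 13 counts in all and was not tested.

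**Figure D5:**
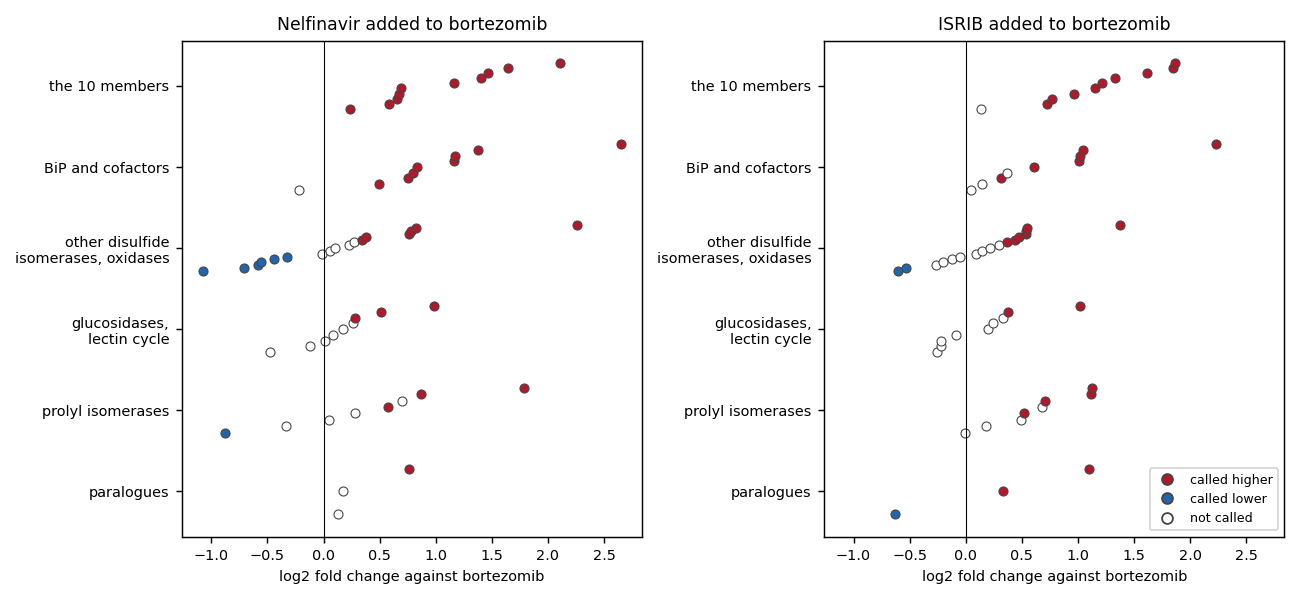
Log2 fold change against bortezomib for each tested gene of the 10 members and of the 5 other lists when nelfinavir (left) or ISRIB (right) was added, filled red where called higher, blue where called lower and white where not called. The 10 members lie between 0.23 and 2.11 with nelfinavir and between 0.13 and 1.87 with ISRIB, and the other disulfide isomerases and oxidases lie on both sides of 0.

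In the other lists, ERSE or ERSE-II was matched in 1 of 8 genes with a window among BiP and its cofactors (HSPA5). It was matched in 1 of 19 among the other disulfide isomerases and oxidases (ERO1LB, ERO1B in RefSeq), and in 0 of 8 among the glycan enzymes. It was matched in 0 of 6 prolyl isomerases with a window and in 0 of 4 paralogues with a window. Whether a match goes with the size of a change was not tested.

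The mean profile of the 10 genes over the 6 groups, centred per gene on the log2 scale, was -0.38 in DMSO, -0.52 in ISRIB, -0.53 in nelfinavir and -0.25 in bortezomib. It was 0.79 with nelfinavir added to bortezomib and 0.89 with ISRIB added. PDIA6 (r = 0.997), MANF (0.994), HSP90B1 (0.989) and CALR (0.987) followed it most closely, and CRELD2 (0.789), PDIA4 (0.806) and CANX (0.844) least. These correlations are over 6 group means, which include the gene itself. The non-members with the most similar profile, among 6431 genes of at least moderate level, were EPAS1 (r = 0.991), TMED5 (0.991), SEL1L (0.990), CD276 (0.989) and DDA1 (0.989).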

How the data were processed

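The deposited values are whole-number read counts per gene that the authors made from QuantSeq FWD 3′ mRNA reads, trimmed with cutadapt 2.8 and aligned with STAR to hg19 (GRCh37), without normalization. No source used here gives the counting program or its strand setting. Counts come from reads, not molecules, so 3′ end overlap and near copies could shift them. In the last 500 bases of transcripts, near copies were sought with BLAST 2.17.0 (at least 80 bases, 97% identity).

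Analyses used R 4.3.3 with edgeR 4.0.16 and DESeq2 1.42.0. Genes were kept with filterByExpr (minimum count 5, total 25), scaled with TMM, and compared by the quasi-likelihood test of edgeR. A single model with 1 coefficient for each condition held all 24 libraries, and p-values were adjusted over 12685 genes by Benjamini-Hochberg. Scripts were tested on simulated data. Gene positions are from GENCODE on GRCh37.

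The members and lists were chosen with earlier results of these data known. Named genes were all members, HSPA5, the paralogues, at most 2 called genes per direction, list and comparison with the largest change, and the 5 genes with the most similar profile. ISRIB, nelfinavir and bortezomib doses came from the labels. Alternatives were RLE factors, upper-quartile factors, library totals with and without mitochondrially encoded genes, DESeq2, no filter, edgeR's default filter, a fit of only the groups compared, a replicate block, counts thinned to the smallest library, and leaving out each library.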

Additional observations from a re-analysis of the deposited data

Results flagged for a closer look

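The change on adding a drug differed between cells with and without bortezomib for 9 of the 10 genes with each drug, by edgeR's interaction term. The value is the log2 change with bortezomib present minus that without it. With nelfinavir it was 1.37 for HSP90B1, 0.874 for CALR, 1.19 for HYOU1, 2.55 for SDF2L1 and 1.62 for MANF. It was 1.80 for CRELD2, 1.02 for PDIA3, 0.848 for PDIA4 and 0.786 for PDIA6. With ISRIB it was 1.49 for HSP90B1, 0.957 for CALR, 1.31 for HYOU1, 1.85 for SDF2L1 and 2.02 for MANF. It was 1.61 for CRELD2, 1.28 for PDIA3, 1.51 for PDIA4 and 0.858 for PDIA6. Both drugs were set against the same DMSO and bortezomib libraries.

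A library stood apart from the other 3 of its group, by the critical value of Dixon's gap ratio, in 3 of 60 groups of gene and condition, where chance gives about 1 in 20. HYOU1 was 139.1 CPM in DMSO replicate 3, with the others between 155 and 157.3 CPM. SDF2L1 was 42.06 CPM in nelfinavir replicate 4, with the others between 53.47 and 53.82 CPM. SDF2L1 was 273.3 CPM in bortezomib with nelfinavir replicate 3, with the others between 229.7 and 235 CPM.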

How the results depend on the processing

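The counts of members called higher against bortezomib stayed at 9 or 10 with nelfinavir and at 9 with ISRIB in all 10 settings and all 8 single-library omissions of each comparison, and both interactions stayed at 9 in the 10 settings. Bortezomib against DMSO depended on the scaling. Library totals alone moved the median of all genes by -0.498 and gave 2 members higher and 6 lower, with HSP90B1 at -0.0418, CALR at -0.29, MANF at -0.366, PDIA6 at -0.326 and the paralogue SDF2 at -0.153. Totals without mitochondrially encoded genes moved it by -0.252 and gave 2 higher, with CALR at -0.0465. Of all 12685 genes, totals alone called 1490 higher and 6266 lower, and totals without mitochondrially encoded genes called 2325 higher. Higher calls made up 51.6% of all calls with the main scaling, 19.2% with totals alone and 33.4% without mitochondrially encoded genes. In bortezomib with nelfinavir against DMSO, totals alone (shift -0.533) called 1 member lower, PDIA4 at -0.371, where 6657 of all 12685 genes were called lower. The share of calls that were higher there went from 49.5% to 22.5% with totals alone and 27.1% without mitochondrially encoded genes, and in bortezomib with ISRIB against DMSO from 52.7% to 17.5% and 33.7%. Against bortezomib it went from 53.8% to 27.7% with nelfinavir (totals without mitochondrially encoded genes, shift -0.173) and from 56.4% to 40.5% with ISRIB (totals alone). For the interactions it went from 49.3% to 31.8% and from 60.8% to 49.4% under those settings.

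For nelfinavir against DMSO, where 1 member was called higher and 1 lower, the lower count was 2 with upper-quartile factors and with DESeq2, 3 with totals without mitochondrially encoded genes, without a filter and with the replicate block, and 7 in a fit of only the groups compared, which called 2 higher. Over all genes, 1121 of 12685 were lower in the model of all libraries, between 1184 and 1317 in the former 5 fits, and 1948 of 12075, with 1925 higher, in the last. It was between 0 and 2 with single libraries left out: 0 without DMSO replicate 1 or 2 or nelfinavir replicate 4. For ISRIB against DMSO, 1 member was called lower without a filter (PDIA3, among 34 of 18915 genes) and 2 in a fit of only the groups compared (PDIA3 and HSP90B1, among 76 of 12049 genes). Between the co-treatments, the count higher with nelfinavir was 2 without a filter (1885 of 18915 genes) and 1 to 2 with libraries left out, and the count lower was 5 with totals without mitochondrially encoded genes (27% of all calls higher, against 53.9%), 1 with only the groups compared (755 of 11216 genes), and 1 to 3 with libraries left out, 1 without bortezomib with nelfinavir replicate 4 or bortezomib with ISRIB replicate 2. The cause was not tested.

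The labels do not say that replicate numbers mark shared cultures, and the study names no pairing, so the fits were not paired. Residuals of 2 libraries correlated above 0.1 in 21 of 60 pairs that share a number and in 39 of 180 others. Of 24 libraries, 10 correlated best with one of their own number. These values do not show that the libraries were unpaired, and the replicate block was run as an alternative. With the replicate block, members called lower were 3 with bortezomib, where 3315 of all 12685 genes were, and 3 with nelfinavir alone, where 1203 were. The counts of the other comparisons were those given above. At these depths the lowest member count in a library was 127, for CRELD2.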
